A study of Homo sapiens with 6 samples.

Results

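The 40 genes described here encode the enzymes of glycolysis, of glycogen storage and breakdown and of the pentose phosphate pathway, together with the kinases and transporters that decide where pyruvate and lactate go. They were taken by symbol from a list of enzymes by pathway step that uses no measured value, although it was drawn up with earlier results of these data known, and all 40 were found among the 25369 genes of each expression table. They comprise 16 genes for the steps from hexokinase to pyruvate kinase, 4 for lactate dehydrogenase and lactate transport, 4 pyruvate dehydrogenase kinases, 3 of the PFKFB enzymes that make and remove fructose-2,6-bisphosphate, 2 for gluconeogenesis, 6 for glycogen and 5 for the pentose phosphate pathway.

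Glycolysis splits glucose into pyruvate in the cytosol. Pyruvate is either reduced to lactate and exported, or enters the mitochondrion, where pyruvate dehydrogenase turns it into acetyl-CoA unless a pyruvate dehydrogenase kinase has switched that enzyme off. Glucose-6-phosphate, the product of hexokinase, can also be stored as glycogen or sent through the pentose phosphate pathway, which yields NADPH and ribose for nucleotides. In clear cell renal cell carcinoma (ccRCC) the hypoxia-inducible transcription factors (HIFs) are commonly active even with oxygen present, glycolytic enzymes are among their textbook targets, and the cells are known for stored glycogen and lipid and for loss of the gluconeogenic enzyme FBP1.

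Polyadenylated mRNA, enriched from total RNA with oligo(dT) beads, was sequenced in 6 libraries of Caki2, a human renal carcinoma cell line that makes no PBRM1 protein. PBRM1 is the bromodomain subunit that defines the PBAF chromatin remodelling complex, and the study asked what its re-expression does to transcription. Besides RNA sequencing, the study reported lower glucose uptake and less AKT phosphorylation in Caki2 after re-expression. It also reported that PBRM1 raised genes that inhibit glycolysis and lowered several that facilitate it. In the same RNA sequencing, carbohydrate metabolism and the response to hypoxia were among the processes enriched in the genes that rose. The study proposes that PBRM1 may act on a subset of HIF targets. Only transcript levels are described here, and they do not measure flux through these pathways. The Caki2+Vector group (replicates A, B and C) carried the doxycycline-inducible lentiviral vector without an insert, and the Caki2+PBRM1 group (replicates A, B and C) carried the same vector with PBRM1, so both groups shared the lentiviral backbone, the McCoy's 5A medium and doxycycline at 2 µg/ml. The comparison therefore rests on a single line with stable, vector-driven expression, and the study calls the replicates biological. Whether they came from separate transductions or cultures is not given in the sources used here, so p-values measure only the spread between these libraries.

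Values are normalized counts, that is, reads on a gene divided by a size factor for the library, and are not divided by gene length. The libraries held 7312955 to 10835355 reads on genes. PBRM1 itself read 187 ± 7.37 normalized counts in the Caki2+Vector libraries and 2545 ± 127 in the Caki2+PBRM1 libraries (mean ± SD, n = 3). The log2 fold change was 3.76 (SE 0.056, limma adjusted p = 3.33e-29). The transcript was thus present in the line that lacks the protein. How its level compares with that of a line with intact PBRM1 was not examined. All 7 renal epithelial markers looked up reached 10 normalized counts in every library, whereas none of the 4 endothelial and none of the 3 fibroblast markers did. Of 4 leukocyte markers CD68 alone did, which epithelial lines can also express. Caki2+Vector A stood slightly apart from its group, with a chi-square per degree of freedom over genes of 3.09 and 2.84 against replicates B and C, compared with 1.34 between B and C and 1.19 to 1.22 within Caki2+PBRM1. The values within Caki2+PBRM1 lie little above what read sampling alone would give. The SEs given here may therefore understate the spread between independent cultures. In bulk RNA of this kind, fewer cells expressing a gene and less RNA per cell cannot be told apart.

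The proximal promoters of 6 members are shown because they pair related enzymes that behaved differently (LDHA with LDHB, PGM1 with PGM2) and add a kinase of each regulatory step (PDK1, PFKFB4). HIFs bind DNA at a short core, here searched as ACGTG and GCGTG on both strands. Capitals mark each run of bases covered by these letters, so CACGTG is the ACGTG core read on both strands and counts as 2 overlapping matches. The sequences are stretches of the RefSeq promoter on GRCh38.p14 (the reads themselves were aligned to hg19), given 5′ to 3′ on the strand of the gene.
LDHA, chr11:18394358-18394514, plus strand: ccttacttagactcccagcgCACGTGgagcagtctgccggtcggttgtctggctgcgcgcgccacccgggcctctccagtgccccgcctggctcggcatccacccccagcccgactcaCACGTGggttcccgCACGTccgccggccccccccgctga
LDHB, chr12:21657843-21657967, minus strand: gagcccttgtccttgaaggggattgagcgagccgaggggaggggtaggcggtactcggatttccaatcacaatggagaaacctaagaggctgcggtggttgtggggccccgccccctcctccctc
PDK1, chr2:172556053-172556089, plus strand: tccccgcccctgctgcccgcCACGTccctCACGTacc
PFKFB4, chr3:48556945-48556989, minus strand: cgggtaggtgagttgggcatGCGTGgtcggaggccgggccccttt
PGM1, chr1:63593286-63593410, plus strand: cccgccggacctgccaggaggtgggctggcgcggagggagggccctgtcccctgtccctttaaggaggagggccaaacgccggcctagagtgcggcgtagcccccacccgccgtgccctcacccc
PGM2, chr4:37826470-37826684, plus strand: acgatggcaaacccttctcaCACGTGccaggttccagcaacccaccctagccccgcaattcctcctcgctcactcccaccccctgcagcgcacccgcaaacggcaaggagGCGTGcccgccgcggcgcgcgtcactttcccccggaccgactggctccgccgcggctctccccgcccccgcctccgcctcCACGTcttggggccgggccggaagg

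Within the 250 bases before the start, LDHA held 5 matches, PDK1 2 and PFKFB4 1, and LDHB held none. The other pair ran the opposite way, since PGM1, which rose, had no match and PGM2, which was not called, had 4. A promoter was matched for 38 members (PFKFB2 and SLC16A1 were not in the promoter table). The start used could be placed against the canonical transcript for 33 of these, at most 217 bases away (HK1). For GPI, PFKM, PFKP, GAPDH and PGAM1 it could not, and the first listed start was taken. Over all genes it could be placed for 17071 of 27305. At least 1 match was present in 19 of the 24 members that rose (79.2%), in 0 of the 3 that fell and in 4 of the 10 matched members that were not called (40%). By comparison, 58.8% of 9825 tested genes with a promoter and 43.7% of all 27305 promoters of the same length held a match. With the ACGTG form alone the shares were 58.3% of the members that rose, 20% of those not called and 23.5% of tested genes. The median GC content was 71.2% for the members that rose, 70.4% for those not called, 66% for tested genes and 58.4% for all promoters. Both motifs are rich in G and C, and how far GC content sets these shares was not tested. These matches are counts of letters and do not show that a factor bound there.

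Re-expression of PBRM1 was accompanied by higher transcript levels along most of the pathway. Of the 40 members, 39 passed the filter on low values, which required 10 normalized counts in 3 libraries, and all 39 in fact exceeded 10 in all 6 libraries. Among these 39, 24 rose (61.5%), 3 fell (PFKM, ENO3 and RPE) and 12 were not called at an adjusted p of 0.05 (limma, adjusted over all 13303 genes tested). Across all tested genes 16.2% rose and 13.0% fell, 29.2% in either direction. The median log2 fold change of the 39 members was 0.23, with a range of -0.57 to 0.95, beside -0.004 over all tested genes. The 2 groups did not overlap for 29 of the members, compared with 41.7% of all tested genes (22.1% separated upwards and 19.6% downwards).

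Most of these genes are abundant, and their errors were smaller than those of the average gene, with a median SE of 0.050 log2 units against 0.083. Among the 2028 tested genes with a mean of at least 1000 normalized counts, a threshold set after seeing the data, 25.4% rose and 18.9% fell. Of the 23 members in that range 19 rose, none fell and 4 were not called (PFKL, PFKP, LDHB and TKT). The differences were modest in size. PFKFB4 was the only member whose mean came close to doubling (91.9% higher), followed by PGD (56.2%), PDK1 (51.3%), TPI1 (47.9%), PDK3 (45.9%), GYS1 (45%) and PGM1 (44.1%). Together the 40 genes took up 2.92 to 3.09% of all normalized counts in the Caki2+Vector libraries and 3.33 to 3.36% in the Caki2+PBRM1 libraries, an increase of 0.343 percentage points.

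**Figure D1:**
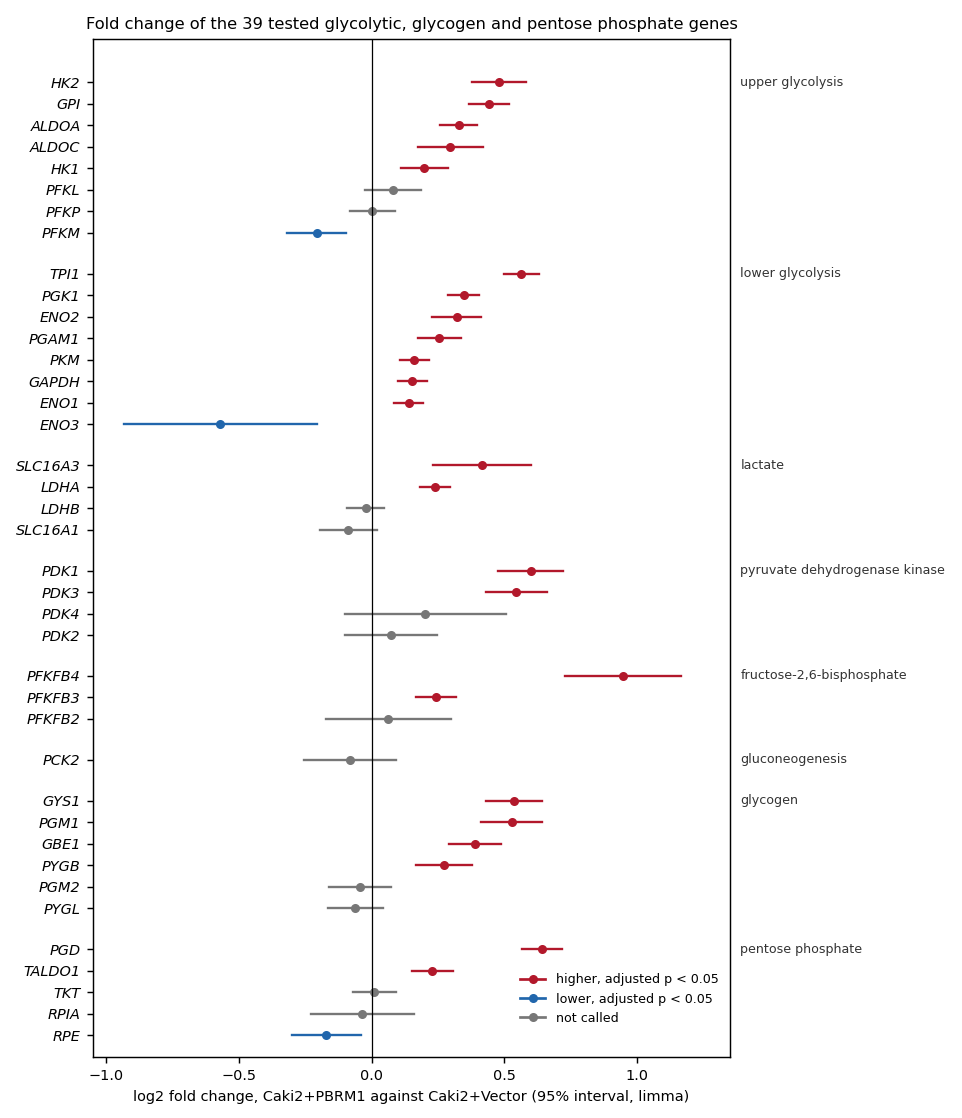
Log2 fold change of Caki2+PBRM1 against Caki2+Vector (x axis) for the 39 tested members (y axis, grouped by step), with points for the limma estimate and lines for its 95% interval. Red marks the 24 members that rose, blue the 3 that fell and grey the 12 not called, and PFKFB4 lies farthest to the right at 0.95.

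Expressed per kilobase of canonical transcript, so that genes can be set side by side, the levels in Caki2+Vector spanned more than 3 orders of magnitude. GAPDH was highest at 39106 normalized counts per kilobase, followed by ENO1 (19489), PKM (16120), ALDOA (13415) and LDHA (11065). The lowest levels above 0 were those of PDK1 at 38.7, ENO3 at 36.4, PFKFB4 at 34.1, PFKFB2 at 25.3 and PDK4 at 17.1 normalized counts per kilobase. The PDK1 level was computed over a long canonical transcript of 14072 bases. FBP1, which turns fructose-1,6-bisphosphate back into fructose-6-phosphate, had 0 reads in each of the 6 libraries. With 3 reads as the limit that a count of 0 allows, its level was below 2.52 to 3.60 normalized counts per library, and it could not be tested.

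The upper steps of glycolysis, from hexokinase to aldolase, consume ATP and are held by 8 of the genes, of which 5 rose and 1 fell. HK1 and HK2 phosphorylate glucose on entry. HK2, the inducible hexokinase of many tumours, measured 819, 900.4 and 907 normalized counts in Caki2+Vector A, B and C and 1213, 1204 and 1241 in Caki2+PBRM1 A, B and C. All 3 Caki2+PBRM1 libraries were higher than any control, and the log2 fold change was 0.48 (SE 0.050, limma adjusted p = 1.08e-08). HK1, the constitutive form, stood at 1802, 1936 and 1902 in the controls and at 2152, 2085 and 2236 with PBRM1, again without overlap but with a smaller change of 0.20 (SE 0.043, adjusted p = 0.000631).

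GPI, which interconverts glucose-6-phosphate and fructose-6-phosphate, had 7068, 7911 and 7795 normalized counts in the controls and 10156, 10350.5 and 10411 after re-expression. The lowest Caki2+PBRM1 library was well above the highest control, and it rose by 0.44 on the log2 scale (SE 0.037, limma adjusted p = 2.65e-10). The aldolases split fructose-1,6-bisphosphate into 2 trioses. ALDOA, the main form here, went from 20521, 23034 and 22448 to 26967, 27966 and 27812 (log2 fold change 0.33, SE 0.034, adjusted p = 5.86e-08), and the minor form ALDOC from 488, 494 and 483 to 617, 618 and 567 (log2 fold change 0.30, SE 0.060, adjusted p = 0.000304). Neither aldolase overlapped between the groups, and the ALDOA fold change was 0.18 after quantile normalization (adjusted p = 0.00903).

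Phosphofructokinase, the committed step, departed from its neighbours. PFKP, the platelet-type subunit and the most abundant of the family, read 7262, 8349 and 8240.1 in the controls and 7865, 7919.5 and 8069 with PBRM1, so that the Caki2+PBRM1 values lay inside the control range. Its log2 fold change was 0.003 with a 95% interval of -0.08 to 0.09, and the sign differed between settings. PFKL, the liver-type subunit, also overlapped, with 1944, 2326 and 2069.9 and then 2159, 2272 and 2252 normalized counts (log2 fold change 0.08, interval -0.02 to 0.18, limma adjusted p = 0.256). When Caki2+Vector B was left out, PFKL passed the threshold at 0.15 (adjusted p = 0.0161). PFKM, the muscle-type subunit, fell, from 893, 1024 and 955 to 828, 812 and 843 (log2 fold change -0.21, SE 0.054, limma adjusted p = 0.00364), and its 3 Caki2+PBRM1 libraries were all below the lowest control.

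The lower steps, from triose-phosphate isomerase to pyruvate kinase, are held by another 8 genes, of which 7 rose and 1 fell. Those from GAPDH on reduce NAD+ and regenerate ATP. TPI1, which equilibrates the trioses, changed most among those that rose in this stretch. It measured 6364, 6514 and 6241 normalized counts in Caki2+Vector A, B and C and 9537, 9329 and 9413 in Caki2+PBRM1 A, B and C. The replicates of a group lay within a few percent of each other and the groups were far apart, giving a log2 fold change of 0.56 (SE 0.032, limma adjusted p = 2.74e-14). TPI1 lies at chr12:6976283-6980112 of GRCh37 and overlaps SPSB2 on the opposite strand. Whether strand was used in counting is not given in the sources used here, but SPSB2 fell, by 0.31 on the log2 scale (adjusted p = 0.00675), with at most 338 reads in a library.

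PGK1, the first ATP-yielding enzyme of the pathway, read 15050.4, 15012 and 14565 in the controls and 19012, 18900.2 and 18874 with PBRM1, and the log2 fold change was 0.35 (SE 0.029, limma adjusted p = 9.36e-11). PGAM1, the mutase that follows, moved from 1961, 2018 and 2011 to 2424, 2331 and 2393 (log2 fold change 0.25, adjusted p = 1.09e-05). Neither gene overlapped between the groups. PGAM1 has a near-identical copy, PGAM4, which had 39 to 68 reads per library and was not called (log2 fold change 0.14, adjusted p = 0.562).

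GAPDH, ENO1 and PKM, the most abundant members per kilobase, had the smallest increases of the 24 that rose. GAPDH, often taken as a reference gene, stood at 48581, 52452 and 49721 in the controls and 55855, 55409.9 and 56308 with PBRM1, and it rose by 0.15 (SE 0.027, limma adjusted p = 6.47e-05). ENO1, the ubiquitous enolase, read 33899.8, 35775 and 34457 and then 38264, 38136 and 38217, a rise of 0.14 (SE 0.027, adjusted p = 0.000188) that was 0.06 and no longer past the threshold after quantile normalization (adjusted p = 0.106). PKM, pyruvate kinase, read 36645, 38319.8 and 36507 and then 41222, 41504 and 41843, and its log2 fold change of 0.16 (SE 0.027, adjusted p = 2.49e-05) turned to -0.03 under quantile normalization (adjusted p = 0.5), which forces all libraries to the same distribution. The groups were separate for GAPDH, ENO1 and PKM in the deposited values. The annotation lists 65 pseudogenes of GAPDH, 5 of PKM and 4 of ENO1, none of them as rows in the expression tables, and how reads matching several places were handled is not given in the sources used here.

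The enolases did not move together. ENO2, the neuron-type enolase and a textbook HIF target, had 1172, 1192 and 1137 normalized counts in the controls and 1427, 1438 and 1509.9 after re-expression, without overlap (log2 fold change 0.32, SE 0.046, limma adjusted p = 2.51e-06). ENO3, the muscle enolase, was scarce and lower, at 49.2, 48.2 and 61.1 and then 34.7, 40 and 31.1. All 3 Caki2+PBRM1 values were below the controls and the log2 fold change was -0.57 (SE 0.178, limma adjusted p = 0.0157). This call rested on 32 to 52 reads per library and was lost without Caki2+Vector C (-0.46, adjusted p = 0.0867), without Caki2+PBRM1 C (-0.49, adjusted p = 0.0846) and with DESeq2 on the recovered reads (-0.58, adjusted p = 0.0977).

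**Figure D2:**
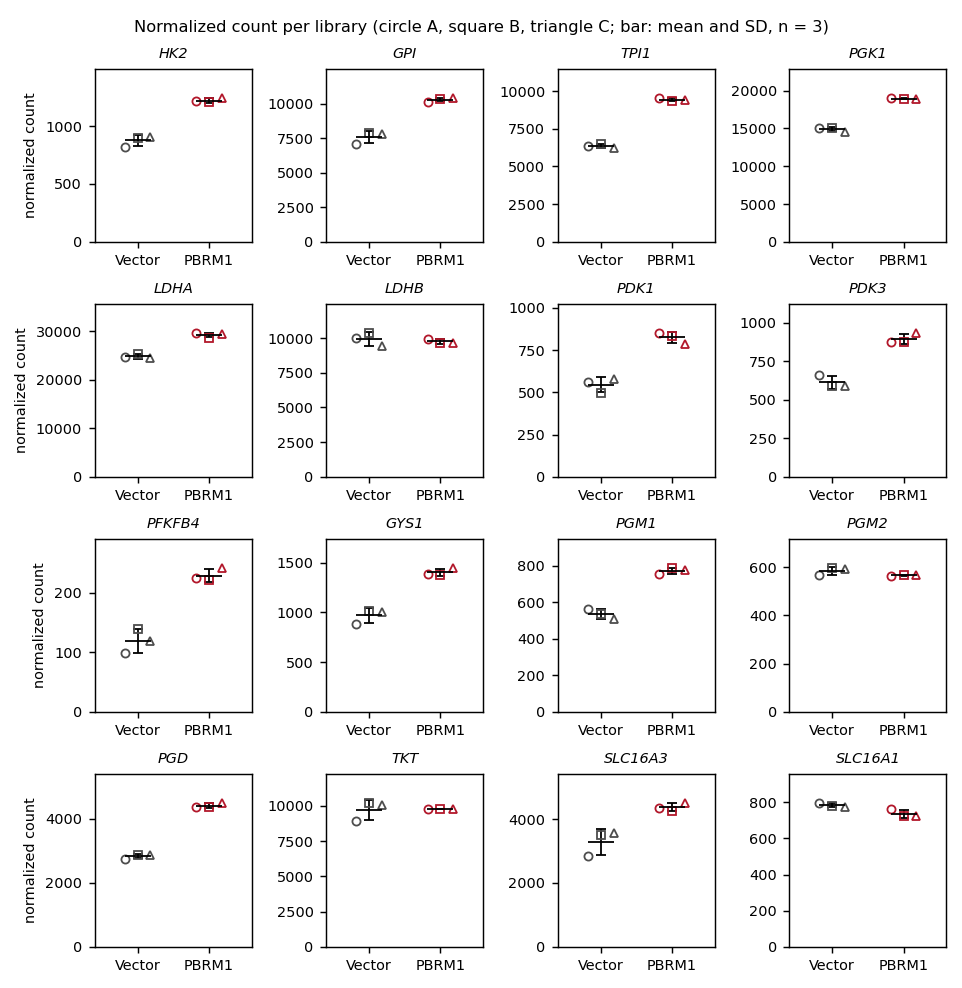
Normalized count (y axis, from 0, linear) of 16 members in each Caki2+Vector and Caki2+PBRM1 library (x axis), with circles for replicate A, squares for B, triangles for C and bars for the mean and SD (n = 3). HK2, GPI, TPI1, PGK1, LDHA, PDK1, PDK3, PFKFB4, GYS1, PGM1, PGD and SLC16A3 separate fully, whereas LDHB, PGM2 and TKT overlap and SLC16A1 is slightly lower with PBRM1.

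Of the 4 genes for lactate, 2 rose, and in each pair it was the form associated with lactate output. LDHA encodes the subunit that favours reduction of pyruvate to lactate. It measured 24600.5, 25392 and 24399 in the controls and 29613, 28691 and 29400.5 with PBRM1, without overlap, and rose by 0.24 (SE 0.028, limma adjusted p = 7.88e-08), or by 0.10 after quantile normalization (adjusted p = 0.00681). LDHB, the subunit that favours the reverse reaction, read 10024, 10367 and 9399 and 9971, 9684 and 9649. The Caki2+PBRM1 values lay within the control range, and the log2 fold change of -0.02 had an interval of -0.09 to 0.05.

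SLC16A3 (MCT4), the low-affinity transporter through which glycolytic cells export lactate, went from 2829, 3494 and 3566 to 4351, 4268 and 4504 normalized counts (log2 fold change 0.42, SE 0.081, limma adjusted p = 0.005). Caki2+Vector A was clearly the lowest of the controls, yet the highest control still lay below every Caki2+PBRM1 library. SLC16A1 (MCT1), the widely expressed transporter, read 796, 779 and 774 and 761, 725 and 723. Its groups did not overlap either, but the log2 fold change of -0.09 did not pass the test (interval -0.20 to 0.02, adjusted p = 0.216).

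The pyruvate dehydrogenase kinases phosphorylate and inactivate pyruvate dehydrogenase, and 2 of the 4 rose. PDK1, the form induced by hypoxia, measured 559, 496 and 579 normalized counts in Caki2+Vector A, B and C and 850.3, 836 and 786 in Caki2+PBRM1 A, B and C. All 3 Caki2+PBRM1 libraries were above the highest control, and the log2 fold change was 0.60 (SE 0.060, limma adjusted p = 5.08e-09). PDK3, the most abundant of the kinases here, read 662, 591 and 589.7 and then 877, 878 and 933, also without overlap (log2 fold change 0.55, SE 0.057, adjusted p = 9.06e-09).

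The remaining kinases were not called. PDK2 gave 208, 241 and 245 in the controls and 235, 254 and 239 with PBRM1 (log2 fold change 0.07, interval -0.10 to 0.25), and it overlaps SAMD14, which had 2 to 8 reads per library. PDK4, the kinase induced by fasting and fatty acids, gave 64.4, 52.0 and 68.3 and 68.2, 75.6 and 68.0 (log2 fold change 0.20, interval -0.10 to 0.50). Both overlapped between the groups, and the upper bound of the PDK4 interval comes close to the PDK3 estimate, so that a smaller rise of PDK4 was not detectable at this depth.

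Fructose-2,6-bisphosphate is the strongest activator of phosphofructokinase, and PFKFB enzymes both make and remove it. PFKFB4 showed the largest change among all 39 tested members. It measured 99.4, 139 and 119.9 normalized counts in Caki2+Vector A, B and C and 224, 221 and 242 in Caki2+PBRM1 A, B and C. The controls varied, with Caki2+Vector A lowest, but the highest control was well below the lowest Caki2+PBRM1 library. The log2 fold change was 0.95 (SE 0.107, limma adjusted p = 5.79e-08) with an interval of 0.73 to 1.17. PFKFB4 lies at chr3:48555117-48599448 of GRCh37 on the minus strand.

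PFKFB3, a HIF target with high kinase activity and by far the most abundant of the 3, went from 3621, 3923 and 3668 to 4445, 4426 and 4378 (log2 fold change 0.24, SE 0.037, limma adjusted p = 9.3e-06), without overlap. PFKFB2, the heart-type enzyme, read 223, 159.7 and 155 in the controls, where replicate A was 42.2% above the mean of B and C, and 175, 180.4 and 199 with PBRM1. It was not called (log2 fold change 0.06, interval -0.17 to 0.30), and the sign depended on which control was included.

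The gluconeogenic genes did not change detectably. PCK2, the mitochondrial phosphoenolpyruvate carboxykinase, read 244, 257 and 303 in the controls and 262, 254 and 241 with PBRM1 (log2 fold change -0.08, interval -0.26 to 0.09), with overlapping groups. FBP1, at 0 reads throughout, gave no sign of re-expression above the limit of 3 reads in any Caki2+PBRM1 library.

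Of the 6 glycogen genes, 4 rose and none fell. PGM1 interconverts glucose-6-phosphate and glucose-1-phosphate at the entry to glycogen. It measured 565, 535 and 508 normalized counts in Caki2+Vector A, B and C and 755, 787 and 776 in Caki2+PBRM1 A, B and C, so the groups did not overlap, and the log2 fold change was 0.53 (SE 0.057, limma adjusted p = 1.97e-08). PGM2, a related mutase that acts mainly on pentose phosphates, read 567, 597 and 593 and 564, 569 and 569. It overlapped by a small margin and was not called (log2 fold change -0.05, interval -0.16 to 0.07).

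GYS1, the muscle-type glycogen synthase found in most tissues, went from 885, 1017 and 1009 to 1391, 1381 and 1448, with every Caki2+PBRM1 library above every control (log2 fold change 0.54, SE 0.052, limma adjusted p = 2.6e-09). GBE1, the branching enzyme, went from 896, 884 and 867 to 1125, 1167 and 1172 (log2 fold change 0.39, SE 0.048, adjusted p = 2.22e-07). PGM1, GYS1 and GBE1, the members on the route into glycogen, therefore all rose. UGP2 and GYG1, further glycogen genes from a wider list described below, were not called (log2 fold change 0.10 and 0.18, limma adjusted p = 0.191 and 0.0943).

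The phosphorylases, which release glucose-1-phosphate from glycogen, differed from each other. PYGB, the brain-type form and the more abundant one, rose from 3305, 3826 and 3961 to 4409, 4431 and 4515 (log2 fold change 0.27, SE 0.050, limma adjusted p = 0.000396). PYGL, the liver form, read 832, 826 and 819 and 805, 783 and 783. Its groups were just separate, with the PBRM1 libraries lower, but the log2 fold change of -0.06 did not pass the test (interval -0.17 to 0.04, adjusted p = 0.381).

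The pentose phosphate pathway was divided. PGD, 6-phosphogluconate dehydrogenase, which makes NADPH in the oxidative branch, measured 2755, 2864 and 2868 normalized counts in Caki2+Vector A, B and C and 4372, 4385 and 4498 in Caki2+PBRM1 A, B and C. It had the second-largest fold change of the members and, with tight replicates, the smallest adjusted p (log2 fold change 0.64, SE 0.037, limma adjusted p = 2.68e-14). PGD lies at chr1:10458649-10480568 of GRCh37. TALDO1, transaldolase of the non-oxidative branch, rose less, from 6683, 7371 and 7420.3 to 8626, 8264 and 8250.3 (log2 fold change 0.23, SE 0.037, adjusted p = 2.8e-05).

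The other non-oxidative genes did not rise. TKT, transketolase, read 8925, 10199.7 and 10036 in the controls and 9768, 9751 and 9784 with PBRM1, with overlapping groups and a log2 fold change of 0.01 (interval -0.07 to 0.09). RPIA, ribose-5-phosphate isomerase, read 166, 159.7 and 167 and 161, 168 and 151 and overlapped likewise (log2 fold change -0.04, interval -0.23 to 0.16). RPE, the epimerase that supplies xylulose-5-phosphate, was lower, at 497, 479 and 499 and then 412, 454 and 444, without overlap (log2 fold change -0.17, SE 0.064, limma adjusted p = 0.0412). The RPE call was close to the threshold and was lost in 6 of 15 alternative settings, among them leaving out Caki2+Vector C (adjusted p = 0.0985) or any of Caki2+PBRM1 A, B and C (0.202, 0.0541 and 0.0816). RPE overlaps KANSL1L on the opposite strand, which was not called (log2 fold change 0.01).

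**Figure D3:**
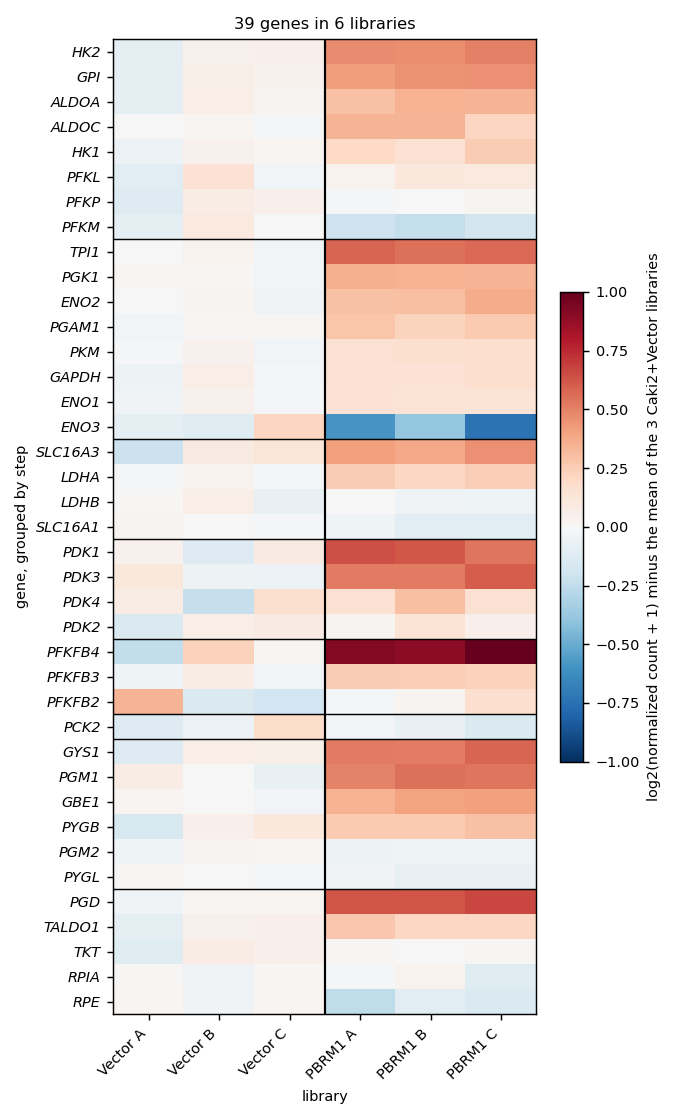
Difference of log2(normalized count + 1) from the mean of the 3 Caki2+Vector libraries (color, red higher and blue lower) for 39 members (y axis, grouped by step) in each library (x axis). The 3 Caki2+PBRM1 libraries resemble each other, with member medians of 0.21 to 0.25, whereas the Caki2+Vector medians lie between -0.04 and 0.03.

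Library by library, the median deviation of the 39 members from the control mean was -0.04, 0.03 and 0.02 in Caki2+Vector A, B and C and 0.25, 0.21 and 0.22 in Caki2+PBRM1 A, B and C. Caki2+Vector A was over 10% below the mean of the other controls for 9 members (PFKL, PFKP, PDK2, PFKFB4, PCK2, GYS1, PYGB, TKT and SLC16A3) and over 10% above it for PDK3 and PFKFB2. Without that library 24 members still rose and 3 fell.

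Ratios of genes within a library do not depend on how libraries are scaled, and 17 were computed between isoenzymes or paired steps. The FBP1/PFKL ratio is not described, since FBP1 had no reads. In 12 ratios the groups did not overlap, 6 of them higher and 6 lower with PBRM1. No such share was computed over other gene pairs, and of single tested genes 41.7% already separated. Each of the 12 ratios contains a member called above, so they largely restate those calls. GYS1 was set against PYGL, the less abundant phosphorylase, and not against PYGB, which also rose. With 3 libraries against 3 the two-sided exact permutation test cannot go below p = 0.1, which these 12 reached (0.142 after Benjamini-Hochberg adjustment over the 17), so the design does not allow any of them to pass 0.05.

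Among the ratios that were higher, PFKFB4 to PFKFB3 differed by 0.70 log2 units, GYS1 to PYGL by 0.60, SLC16A3 to SLC16A1 by 0.50, PYGB to PYGL by 0.33, HK2 to HK1 by 0.28 and ENO2 to ENO1 by 0.18. The lower ones were ENO3 to ENO1 (-0.71), PGM2 to PGM1 (-0.57), PDK2 to PDK1 (-0.53), PDK4 to PDK1 (-0.40), PFKM to PFKL (-0.29) and LDHB to LDHA (-0.26). The PDK3/PDK1 and ALDOC/ALDOA ratios overlapped between groups and differed by -0.05 and -0.03, and PFKP/PFKL and PFKFB3/PFKFB2 overlapped as well.

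**Figure D4:**
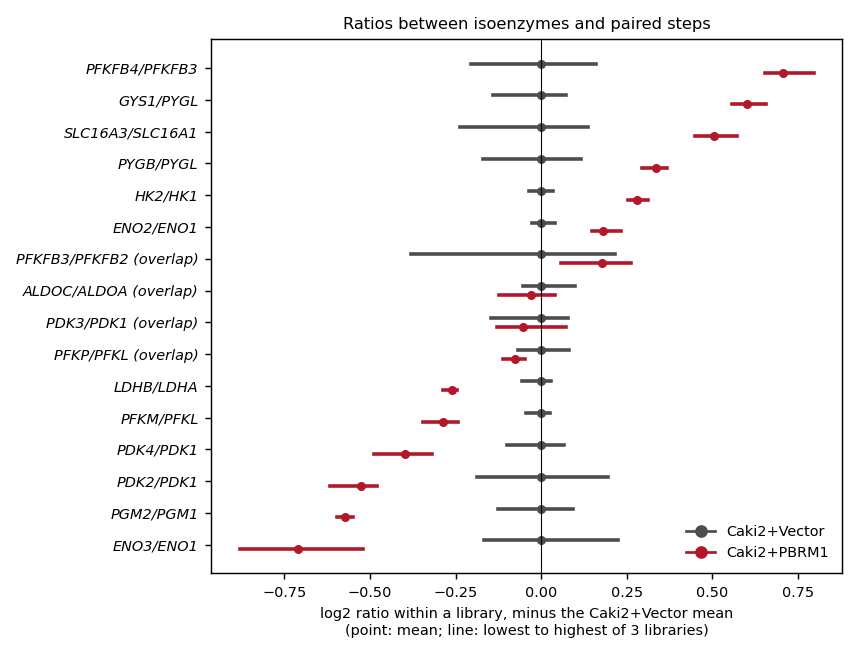
Log2 ratio of 2 members within a library, relative to the Caki2+Vector mean (x axis), for 16 ratios (y axis), with points for the group mean and lines from the lowest to the highest of 3 libraries. For 12 ratios the Caki2+PBRM1 range (red) lies outside the Caki2+Vector range (grey), from -0.71 for ENO3/ENO1 to 0.70 for PFKFB4/PFKFB3, and 4 are marked as overlapping.

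As shares of a family's transcripts per kilobase, the predominant isoenzyme was the same in both groups in each family examined. LDHA made up 59.2 ± 0.8% of the lactate dehydrogenase pair in Caki2+Vector and 63.5 ± 0.4% in Caki2+PBRM1 (mean ± SD, n = 3). PGM1 went from 55.7 ± 1.9% to 65.2 ± 0.4% of the phosphoglucomutase pair, which was the largest shift of these shares. HK2 went from 23.0 ± 0.4% to 26.6 ± 0.4% of the pair formed with HK1. A further hexokinase gene of the wider list, HKDC1, is outside this pair and read 1131, 1184 and 1143 normalized counts in the controls and 1086, 1107 and 1172 with PBRM1, with overlapping groups and no call (log2 fold change -0.04, interval -0.14 to 0.06). None of the LDHA, PGM1 and HK2 shares overlapped between the groups.

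PFKFB4 went from 3.81 ± 0.49% to 6.08 ± 0.31% of the PFKFB family, in which PFKFB3 held 93.3 ± 0.2% and 91.5 ± 0.5%. SLC16A3 went from 85.7 ± 1.8% to 89.5 ± 0.4% of the lactate transporter pair and PYGB from 75.2 ± 2.0% to 79.3 ± 0.4% of the phosphorylase pair. In the kinase family PDK2 went from 14.5 ± 1.8% to 10.9 ± 0.5%, and PDK3 from 73.9 ± 2.1% to 77.4 ± 1.1%. These kinase shares depend strongly on the transcript lengths used, 14072 bases for PDK1 and 1741 for PDK3. Without division by length, PDK1 and PDK3 averaged 544 and 614 normalized counts in Caki2+Vector and 824 and 896 in Caki2+PBRM1. By contrast, PFKP held 74.5% of phosphofructokinase transcripts in both groups, and ALDOA 97.8% of aldolase transcripts.

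The members tagged as textbook HIF targets, a list written with earlier results of these data known and therefore no independent evidence, numbered 20. Of these 19 rose, PFKL was not called, and the median log2 fold change was 0.34. Of the 19 tested members without the tag 5 rose (HK1, PDK3, PYGB, PGD and TALDO1) and 3 fell, with a median of 0.003. Over all tested genes 16.2% rose, and 25.4% of those with a mean of at least 1000 normalized counts. How far this split follows from the way the tag was drawn up was not tested, so it is a description only.

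To see whether the pattern extended to other enzymes of these pathways, a wider list of 72 genes was examined, comprising further isoenzymes, the pyruvate dehydrogenase complex, glycogen regulators and the remaining pentose phosphate genes. Of these 54 could be tested, and 7 rose (13.0%) and 4 fell (7.41%), compared with 16.2% and 13.0% of all tested genes. Their median log2 fold change was 0.00. Both the members and this list were drawn up with earlier results of these data known. Many of the wider genes were also less abundant than most members, and calls were more frequent among abundant genes (25.4% rose at a mean of at least 1000). The 13.0% here and the 61.5% of the members are therefore not directly comparable.

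Of the wider genes, DERA, which cleaves deoxyribose phosphate, rose from 479, 477 and 454 to 585, 591 and 574 (log2 fold change 0.31, SE 0.059, limma adjusted p = 0.000159). PPP1R3C, a subunit that targets protein phosphatase 1 to glycogen and thereby activates glycogen synthase, rose from 124, 145 and 99.5 to 160.3, 168 and 177 (log2 fold change 0.47, SE 0.116, adjusted p = 0.00254). Neither of these overlapped between groups.

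PGM2L1, which makes glucose-1,6-bisphosphate, the cofactor of the phosphoglucomutases, was scarce, at 41.7, 34.0 and 32.4 and then 60.7, 48.9 and 49.5 (log2 fold change 0.55, SE 0.177, limma adjusted p = 0.0196). Its groups did not overlap, but the call was lost with DESeq2 on the recovered reads (adjusted p = 0.124) and without Caki2+Vector B (0.0597), Caki2+Vector C (0.0635) or Caki2+PBRM1 A (0.115). SLC16A7 (MCT2), a high-affinity transporter associated with uptake of lactate and pyruvate, fell, from 618, 514 and 563 to 486, 449.8 and 423 (log2 fold change -0.32, SE 0.069, adjusted p = 0.000833).

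The other wider genes that passed the test changed by less than 0.3 log2 units. BSG, the chaperone that brings lactate transporters to the membrane, rose by 0.22 (adjusted p = 0.00112), and PRPS2, GSK3B and DLD rose by 0.27, 0.15 and 0.15. DLAT, the acetyltransferase subunit of pyruvate dehydrogenase, fell (-0.22, adjusted p = 0.00381), as did PDP1, the phosphatase that reverses the action of the PDK kinases (-0.20, adjusted p = 0.0457), and PRPS1 (-0.14). PDHA1, the subunit that the PDK kinases phosphorylate, had a log2 fold change of -0.01 and was not called. Of the calls under 0.3, those of BSG, PRPS2 and DLAT held under all alternatives. GSK3B lost its call without Caki2+Vector C or any of the Caki2+PBRM1 libraries (adjusted p of 0.0899 to 0.206), DLD without Caki2+Vector B or any of the Caki2+PBRM1 libraries (0.0674 to 0.137), PDP1 without Caki2+Vector A, Caki2+Vector C or any of the Caki2+PBRM1 libraries (0.0876 to 0.147), and PRPS1 without Caki2+Vector A or B or Caki2+PBRM1 B or C (0.0554 to 0.181). DESeq2 on the recovered reads called none of GSK3B, DLD, PDP1 and PRPS1 (0.149, 0.0879, 0.168 and 0.106). Without a filter on low values GSK3B, PDP1 and PRPS1 missed the threshold (0.0557, 0.07 and 0.053), as did GSK3B and DLD after quantile normalization (0.0557 and 0.0563).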

How the data were processed

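The authors sequenced poly(A)-enriched RNA of 6 Caki2 samples, removed adapters and ribosomal reads, aligned to hg19 with STAR, counted reads per gene with htseq-count and normalized with DESeq2 (versions not given in the sources used here). The deposited values are a normalized signal, reads divided by a size factor for each library. All values (100%) were whole reads within 0.01 when multiplied back, and edgeR 4.0.16 and DESeq2 1.42.0 were run on these reads as alternatives, calling 4030 and 2553 genes. The main test was limma 3.58.1 with trend and robust options on log2(normalized count + 1), so fold changes of low genes are understated. It was applied to the 13303 genes with at least 10 in 3 libraries, two-sided, with Benjamini-Hochberg adjustment and a threshold of 0.05. The procedure was run on simulated data with 200 genes changed by 1 log2 unit. That is more than any member changed, so it does not measure error rates at the sizes seen here. Ratios used exact permutation tests, and limits for counts of 0 cover counting error only. All members are named, with values per library for those past the threshold at 0.3 log2 units or more, the 2 largest of each group and ratio partners. Wider genes were named at 0.3 or more, and those under 0.3, PDHA1, HKDC1, UGP2 and GYG1 were chosen after their values were seen. 1 gene is not reported here. The members and lists were chosen with earlier results of these data known. Alternatives were edgeR, DESeq2, other filters, pseudocounts of 0.5 and 4, TMM scaling, quantile normalization, a replicate block and leaving out each library. Gene positions and transcript lengths are from GENCODE on GRCh37.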

Additional observations from a re-analysis of the deposited data

How the results depend on the processing

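Of the 27 members called, 23 kept their call under all 15 alternatives, the exceptions being ENO1 and PKM under quantile normalization and ENO3 and RPE as given above. Of the 12 not called, 4 kept sign and side throughout. The 3 members lower became 1 with DESeq2 and 1 to 3 when a library was left out (1 without Caki2+Vector C or Caki2+PBRM1 C). Wider genes higher, 7 in all, became 4 with DESeq2 and 4 to 12 without 1 library (12 without Caki2+Vector A, 4 without Caki2+PBRM1 A), and the 4 lower became 2 with DESeq2, 2 without a filter and 2 to 4 without 1 library (2 without Caki2+PBRM1 B or C). All calls numbered 3886, with 1734 lower, compared with 2553 and 1057 for DESeq2. Quantile normalization lowered the member median from 0.23 to 0.16, and among called members moved the fold change by over 1.5 times for ALDOA, LDHA, ENO1 and PKM. Signs turned for PFKP with DESeq2 (-0.0003) and for PFKP, PKM and TKT with quantile normalization (-0.020, -0.027 and -0.003). Leaving out a library gave -0.061 to 0.040 for PFKP, -0.062 to 0.009 for LDHB, -0.0001 to 0.115 for PDK2, -0.032 to 0.232 for PFKFB2, -0.146 to 0.010 for PCK2, -0.051 to 0.046 for TKT and -0.070 to 0.006 for RPIA, and -0.049 to 0.035 for PDHA1 of the wider list (log2). The cause of these shifts was not tested. The replicate letters share no origin in the labels and same-letter deviations correlated at 0.006, -0.008 and 0.014, so they were not taken as pairs. With the replicate block 24 members rose and 3 fell, and it changed no call of a member, with 4107 calls over all genes.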
